A study of Mus musculus with 16 samples.

Results

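Cathepsins are proteases that cut proteins in the acidic interior of lysosomes and endosomes, and the transcripts of 9 of them, Ctsa, Ctsb, Ctsc, Ctsd, Ctse, Ctsh, Ctsl, Ctss and Ctsz, are described here in cells sorted by a macrophage gate from mice with an ovarian tumour. The arrays labelled CCR2- carried far more B cell and far less large peritoneal macrophage marker signal than those labelled CCR2+. The 9 genes were chosen by name, and every probe set annotated to exactly 1 of these symbols was taken, which gave 21 of the 34958 probe sets with 1 symbol and 9 of 18194 genes. Each gene is represented by its probe set of highest mean unless another is named, and levels are log2 intensities after quantile normalization over the 16 arrays. A level is comparable between arrays for 1 probe set, but not between probe sets.

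The RNA came from peritoneal lavage of female C57BL/6N mice that were 8 to 12 weeks old when 1 mg of tamoxifen was given once by gavage. After 3 weeks cells of the mouse ovarian cancer line ID8, carrying luciferase (ID8-luc), were placed in the peritoneal cavity and grew for 4 weeks. Cells sorted as CD45+ CD11b+ F4/80+, the surface gate for tumour-associated macrophages, were divided by CCR2, the chemokine receptor of inflammatory monocytes. The 4 groups of 4 arrays were CCR2+ control, CCR2+ RbpjiΔEC, CCR2- control and CCR2- RbpjiΔEC. Tamoxifen and tumour cells are described for both genotypes alike. RbpjiΔEC names mice with an induced loss of Rbpj, the DNA-binding partner of Notch, in endothelial cells, so the sorted cells were not themselves the target. The Cre driver and the control genotype are not given in the sources used here. Nothing in the labels says whether arrays came from separate animals or pools, and p-values measure only the spread between these arrays, which may be technical.

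Cathepsins are made as inactive precursors, carried to the lysosome by mannose 6-phosphate receptors or sortilin, and activated there by acid, by one another or by legumain. Macrophages use them to digest engulfed cells and matrix, to trim invariant chain and antigen for MHC class II, and, when secreted, to cut proteins outside the cell. The family spans 3 catalytic classes: aspartic (Ctsd, Ctse), cysteine (Ctsb, Ctsc, Ctsh, Ctsl, Ctss, Ctsz) and serine (Ctsa).

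Promoter sequences are shown for the 4 genes whose 250 bases upstream of a transcription start held 1 of 3 motifs searched on both strands, 6 of the 9 genes being in the promoter table and Ctsb, Ctse and Ctsh not. The motifs were CACGTG, the E-box bound by the MiT/TFE factors that drive lysosomal genes, its extended form TCACGTGA, which contains CACGTG, and GAAA, any 2 bases and GAAA again, the interferon-stimulated element bound by interferon regulatory factors. Sequences are from RefSeq on GRCm38.p6, read 5′ to 3′ on the gene's strand, with the motif matches in capitals. Ctsd lies at chr7:142387828-142388077 on the minus strand, Ctsa (the second of its 2 listed starts) at chr2:164833523-164833772 on the plus strand, Ctsl at chr13:64370521-64370770 on the minus strand and Ctss at chr3:95526536-95526785 on the plus strand.
Ctsd: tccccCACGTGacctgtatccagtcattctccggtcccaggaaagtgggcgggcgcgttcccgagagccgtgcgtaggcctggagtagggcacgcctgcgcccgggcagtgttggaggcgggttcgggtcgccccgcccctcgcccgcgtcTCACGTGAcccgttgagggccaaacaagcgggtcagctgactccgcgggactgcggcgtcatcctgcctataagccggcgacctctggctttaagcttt
Ctsa: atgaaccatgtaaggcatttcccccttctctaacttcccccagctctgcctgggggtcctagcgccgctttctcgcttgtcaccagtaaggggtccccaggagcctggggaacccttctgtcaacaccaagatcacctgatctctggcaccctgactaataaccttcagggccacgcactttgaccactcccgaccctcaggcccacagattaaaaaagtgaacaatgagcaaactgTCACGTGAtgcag
Ctsl: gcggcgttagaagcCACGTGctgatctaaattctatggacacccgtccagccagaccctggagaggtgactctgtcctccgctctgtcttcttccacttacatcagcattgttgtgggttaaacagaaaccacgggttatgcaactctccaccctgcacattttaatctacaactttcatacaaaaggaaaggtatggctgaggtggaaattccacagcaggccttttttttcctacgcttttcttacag
Ctss: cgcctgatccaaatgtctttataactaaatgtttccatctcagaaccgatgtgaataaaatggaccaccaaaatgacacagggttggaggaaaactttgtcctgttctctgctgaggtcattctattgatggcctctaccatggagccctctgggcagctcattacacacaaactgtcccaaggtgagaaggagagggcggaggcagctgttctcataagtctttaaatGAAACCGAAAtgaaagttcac
Counted from the start, the first base of CACGTG stood at -245 and -98 in Ctsd, at -12 in Ctsa and at -236 in Ctsl. The longer TCACGTGA was found in Ctsd at -99 and in Ctsa at -13. The interferon-stimulated element was found in Ctss, at -21. Of 32851 promoters of the same length, 6.02% held CACGTG, 0.785% TCACGTGA and 2.98% the interferon-stimulated element. The Ctsz and Ctsc windows, and the first listed start of Ctsa, held none of these letters. A match describes the letters only; binding was not measured.

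Between the sort labels the cathepsins did not move as 1 block. Ctsl, Ctsd, Ctsa and Ctsb were higher in the CCR2+ arrays of both genotypes, by 18.7-fold, 7.28-fold, 4.20-fold and 2.54-fold in control mice. Their other probe sets gave 2.80-fold for Ctsl, 1.42-fold for Ctsa and 2.32-fold to 7.89-fold for Ctsb, so the order of sizes depended on the probe set. Ctse was lower in the CCR2+ arrays, by 2.13-fold. Ctsh and Ctsz were slightly higher in control mice (1.38-fold each), and Ctsc and Ctss did not pass the test. At a limma Benjamini-Hochberg adjusted p under 0.05, 6 of the 9 genes were higher and 1 was lower in control mice, where 40.8% of all 18194 genes were called (19.4% higher and 21.4% lower). In RbpjiΔEC mice 4 were higher and 1 was lower, against 39.1% of all genes called (18.1% higher and 21% lower). The median difference of the 9 genes was 0.47 in control and 0.24 in RbpjiΔEC mice, beside -0.03 over all genes in each. The arrays of the 2 labels did not overlap for 7 of the 9 genes in control mice and 5 in RbpjiΔEC mice, against 37.4% and 38.2% of all genes. Called differences of at least 4-fold in the higher direction were found for 3.1% and 3.07% of all genes, and Ctsl and Ctsd were among them in both genotypes and Ctsa in control mice.

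**Figure D1:**
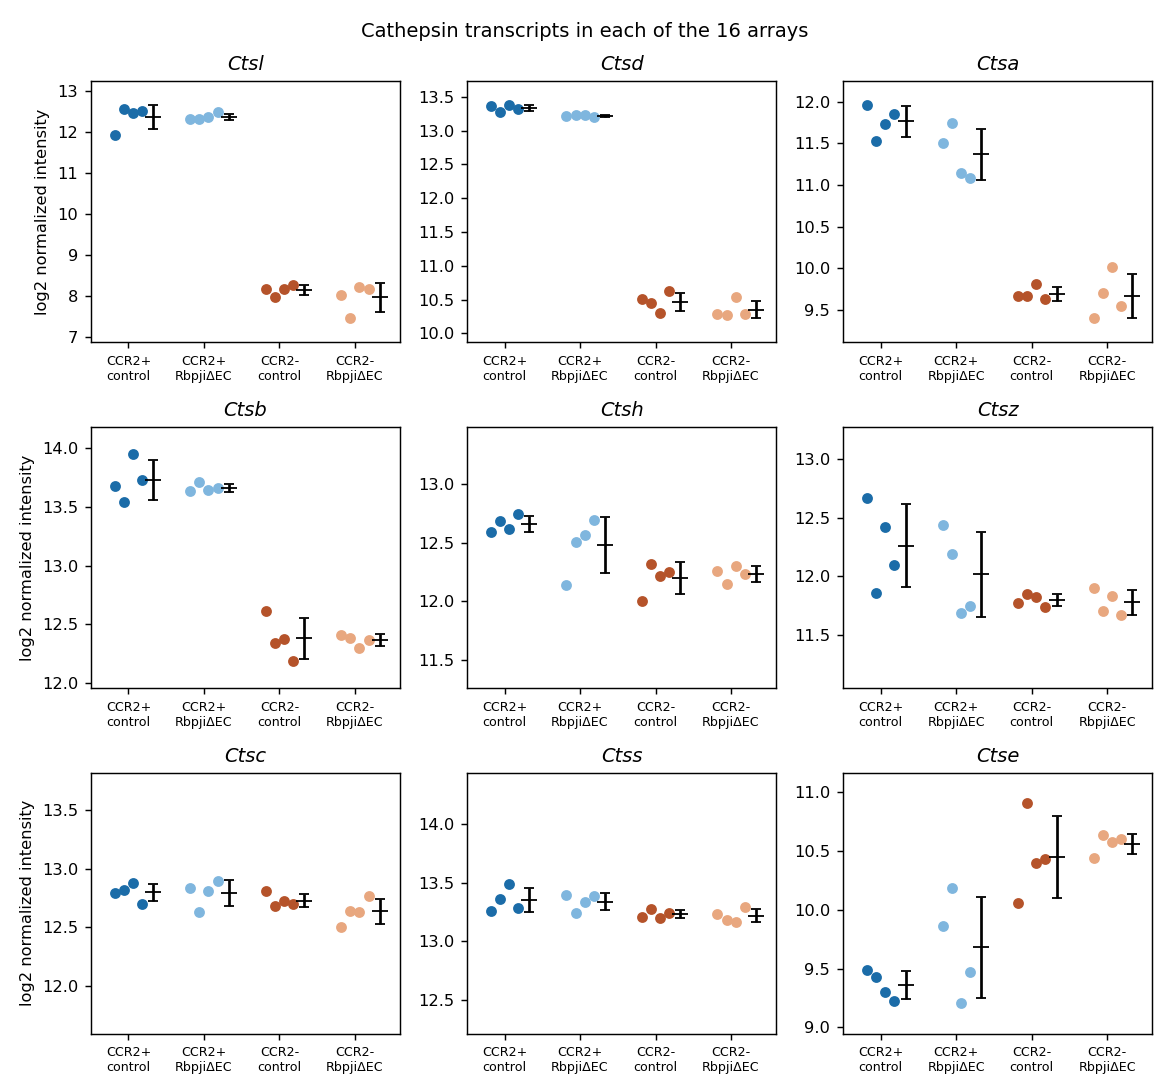
Log2 normalized intensity of the 9 cathepsin genes (1 panel each, own vertical scale) in each of the 16 arrays, points, by group, with the group mean and SD over 4 arrays beside them. The 8 CCR2+ arrays lie apart from the 8 CCR2- arrays for Ctsl, Ctsd, Ctsa and Ctsb, whereas the 4 groups overlap for Ctsc and Ctss.

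The labels set apart arrays of different cell content and of different file processing, which touches every difference between them. In bulk arrays, fewer cells of a type and less RNA per cell cannot be told apart. All 6 large peritoneal macrophage markers were higher and all 12 measured B cell markers lower in the CCR2+ arrays. Their summed linear levels ranged from 43570 to 48459 in CCR2+ control and from 3677 to 4126 in CCR2- control arrays for the macrophage markers, and from 3671 to 3994 against 62730 to 65028 for the B cell markers. Large peritoneal macrophage markers summed to 43453 to 46961 in CCR2+ RbpjiΔEC and 3393 to 3850 in CCR2- RbpjiΔEC arrays. For B cell markers these sums were 3551 to 3985 and 62645 to 66593. The 6 measured monocyte and small peritoneal macrophage markers ran the other way in sum. They read 4482 to 5561 in CCR2+ control and 15072 to 17878 in CCR2- control arrays, with 2 called higher and 4 lower. The 7 measured dendritic cell markers summed to 2261 to 2968 and 4036 to 8001 there, with 0 called higher and 6 lower. In RbpjiΔEC mice these calls were 2 and 2, and 0 and 4. Adgre1, which encodes F4/80, read 13.25 ± 0.14 in CCR2+ control and 9.21 ± 0.24 in CCR2- control arrays (SD, n = 4 each). Ccr2 itself was lower in the arrays labelled CCR2+, by -1.99 (SE 0.63, limma adjusted p = 0.0184) in control mice, and by -1.26 (adjusted p = 0.135), which was not called, in RbpjiΔEC mice. Its arrays overlapped between the labels in both genotypes, and each direction below refers to the deposited label. Deposited array means were 821 to 827 for the 8 CCR2+ columns and 481 to 762 for the 8 CCR2- columns. In each CCR2- column, 100% of the values became whole numbers when multiplied by a whole number of at most 22. In the CCR2+ columns this held for 2.58% to 2.91% of the values. The label and the processing of its columns therefore cannot be told apart. The part of cell content in the cathepsin differences was not tested.

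Of the aspartic pair, Ctsd encodes the main aspartic endopeptidase of lysosomes. Its 4 CCR2+ control arrays read 13.37, 13.27, 13.38 and 13.32, and its 4 CCR2- control arrays 10.50, 10.46, 10.30 and 10.62. The CCR2+ RbpjiΔEC arrays read 13.22, 13.23, 13.23 and 13.20 and the CCR2- RbpjiΔEC arrays 10.28, 10.28, 10.54 and 10.29. Every CCR2+ array was above every CCR2- array. The difference was 2.86 (SE 0.08, limma adjusted p = 5.24e-14) in control and 2.87 (SE 0.08, adjusted p = 5.38e-14) in RbpjiΔEC mice. Ctsd has 1 probe set.

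Ctse encodes the endosomal aspartic protease of immune and epithelial cells, and it ran the other way. Its CCR2+ control arrays read 9.49, 9.43, 9.30 and 9.23 and its CCR2- control arrays 10.06, 10.91, 10.40 and 10.43, with no overlap. In RbpjiΔEC mice the CCR2+ arrays read 9.86, 10.18, 9.20 and 9.47 and the CCR2- arrays 10.44, 10.64, 10.57 and 10.60, again without overlap. The CCR2+ RbpjiΔEC arrays were widely spread (SD 0.43), and 1 of them lay above the lowest CCR2- control array. The difference was -1.09 (SE 0.19, limma adjusted p = 0.000144) in control and -0.88 (SE 0.19, adjusted p = 0.00103) in RbpjiΔEC mice. The other Ctse probe set differed by -1.39 (SE 0.18) and -1.17 (SE 0.18). In RbpjiΔEC mice the Ctse call was lost under median centring (-0.61, adjusted p = 0.0514) and with no normalization between arrays (-0.32, adjusted p = 0.316).

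Among the cysteine endopeptidases, Ctsl had the largest label difference of the 9 genes on each of the 3 scalings run. Ctsl cleaves a wide range of proteins and matures other lysosomal enzymes. Its CCR2+ control arrays read 11.92, 12.56, 12.46 and 12.50, and its CCR2- control arrays 8.15, 7.97, 8.16 and 8.26. In RbpjiΔEC mice the CCR2+ arrays read 12.30, 12.30, 12.35 and 12.47 and the CCR2- arrays 8.02, 7.44, 8.20 and 8.17. The labels were thus far apart in both genotypes. The lowest CCR2- array read 7.44, above the trp control probes, which match a bacterial gene and averaged 6.35 to 6.51 per array. In deposited intensities Ctsl read 150 to 316 in the CCR2- arrays, around the medians of these arrays over all probe sets, 187 to 270. The difference was 4.23 (SE 0.16, limma adjusted p = 1.56e-12) and 4.40 (SE 0.16, adjusted p = 8.71e-13). A dimmer second Ctsl probe set differed by 1.49 (SE 0.11) and 1.61 (SE 0.11); its CCR2- control mean was 6.89 ± 0.17 (SD, n = 4), close to the trp level. With the mean of both probe sets the Ctsl difference was 2.86 and 3.00.

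Ctsb, a cysteine protease that acts as both endopeptidase and carboxypeptidase, was higher in the CCR2+ arrays by all 5 of its probe sets. The brightest read 13.68, 13.54, 13.95 and 13.73 in CCR2+ control and 12.61, 12.34, 12.38 and 12.19 in CCR2- control arrays. In RbpjiΔEC mice it read 13.64, 13.72, 13.65 and 13.66 in the CCR2+ and 12.41, 12.39, 12.30 and 12.37 in the CCR2- arrays. No CCR2+ array fell into the CCR2- range. The difference was 1.35 (SE 0.10, limma adjusted p = 6.42e-09) in control and 1.30 (SE 0.10, adjusted p = 1.01e-08) in RbpjiΔEC mice. The 4 other probe sets differed by 1.21 to 2.98 in control mice, so the size of the Ctsb difference depended on the probe set and its direction did not. With the mean of all 5 probe sets the Ctsb difference was 2.09 in control and 2.07 in RbpjiΔEC mice.

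Ctss cleaves invariant chain in antigen-presenting cells and has 1 probe set, whose levels lay close together under quantile normalization. It read 13.26, 13.36, 13.49 and 13.29 in CCR2+ control and 13.21, 13.28, 13.20 and 13.24 in CCR2- control arrays. The RbpjiΔEC arrays read 13.39, 13.24, 13.34 and 13.38 in the CCR2+ and 13.24, 13.19, 13.16 and 13.29 in the CCR2- group. All 16 values lay between 13.16 and 13.49 and the 4 groups overlapped. The difference between the labels was 0.12 in each genotype (SE 0.07, limma adjusted p = 0.215 and 0.217), with 95% intervals of -0.03 to 0.27 in both. It was called higher under median centring in control mice (0.58, adjusted p = 0.00608) and with no normalization in both genotypes (0.64 and 0.63, limma adjusted p = 0.00390 and 0.00386). Cd74, which encodes the invariant chain, was lower in the CCR2+ arrays, by -1.40 (SE 0.18) in control and -1.95 (SE 0.18) in RbpjiΔEC mice.

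The cysteine exopeptidases showed small differences under quantile normalization, which were over 1.5 times larger on both other scalings. Ctsh encodes an aminopeptidase, and its CCR2+ control arrays read 12.59, 12.69, 12.62 and 12.74 against 12.01, 12.32, 12.22 and 12.25 in the CCR2- control arrays, with no overlap and a difference of 0.46 (SE 0.11, limma adjusted p = 0.00217). In RbpjiΔEC mice the CCR2+ arrays read 12.14, 12.50, 12.57 and 12.70 and the CCR2- arrays 12.26, 12.15, 12.30 and 12.23; these overlapped, and the difference was 0.24 (SE 0.11, adjusted p = 0.0859). Without the lowest CCR2+ RbpjiΔEC array it was 0.35 (adjusted p = 0.00543). The second Ctsh probe set differed by 0.12 in each genotype and was not called.

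Ctsz, a carboxypeptidase, varied widely within the CCR2+ groups (SD 0.35 and 0.36) and little within the CCR2- groups (SD 0.05 and 0.11). It read 12.66, 11.86, 12.42 and 12.10 in CCR2+ control and 12.43, 12.19, 11.69 and 11.75 in CCR2+ RbpjiΔEC arrays. The CCR2- arrays lay within 11.67 to 11.90 in both genotypes. The difference was 0.47 (SE 0.17, limma adjusted p = 0.0371) in control mice and 0.24 (SE 0.17, adjusted p = 0.303) in RbpjiΔEC mice. The control call was lost in 6 of 8 fits that left out 1 array, which were those without CCR2+ control replicate 1 or 3 or any 1 of the CCR2- control arrays (adjusted p up to 0.134). Its 2 other probe sets differed by 0.40 and 0.39 in control mice and were not called.

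Ctsc, the dipeptidyl peptidase that activates granule serine proteases, read 12.79, 12.82, 12.88 and 12.70 in CCR2+ control and 12.80, 12.68, 12.72 and 12.70 in CCR2- control arrays. The RbpjiΔEC arrays read 12.83, 12.63, 12.81 and 12.90 in the CCR2+ and 12.50, 12.64, 12.63 and 12.77 in the CCR2- group. The labels overlapped in both genotypes. The difference was 0.07 (SE 0.08, limma adjusted p = 0.521) in control and 0.16 (SE 0.08, adjusted p = 0.142) in RbpjiΔEC mice. The 2 other probe sets pointed in opposite directions, 0.34 and -0.42 in control mice, and neither was called.

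The serine carboxypeptidase Ctsa, which also shields beta-galactosidase and neuraminidase in a lysosomal complex, was higher in the CCR2+ arrays. It read 11.96, 11.53, 11.73 and 11.85 in CCR2+ control and 9.67, 9.67, 9.81 and 9.63 in CCR2- control arrays. In RbpjiΔEC mice it read 11.50, 11.74, 11.15 and 11.08 in the CCR2+ and 9.40, 9.70, 10.02 and 9.54 in the CCR2- arrays. The labels did not overlap, and the difference was 2.07 (SE 0.15, limma adjusted p = 8.28e-09) in control and 1.70 (SE 0.15, adjusted p = 9.64e-08) in RbpjiΔEC mice. The second Ctsa probe set, with a CCR2- control mean of 7.97 ± 0.21 (SD, n = 4), differed by 0.51 (SE 0.11) and 0.71 (SE 0.11), and with the mean of both the Ctsa difference was 1.29 and 1.21.

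**Figure D2:**
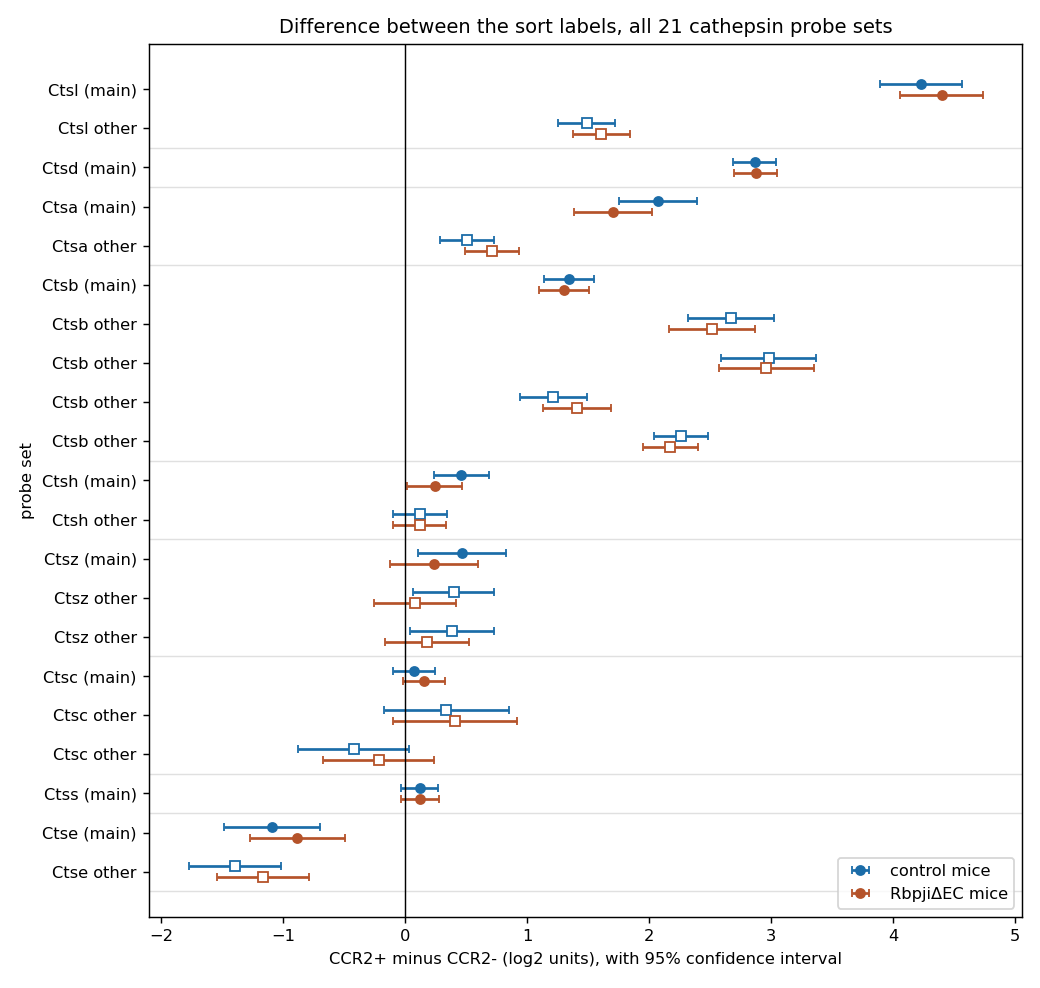
CCR2+ minus CCR2- difference in log2 units of each of the 21 cathepsin probe sets in control and RbpjiΔEC mice, with 95% confidence intervals; filled circles are the probe set that stands for the gene and open squares the others. All probe sets of Ctsl, Ctsd, Ctsa and Ctsb lie to the right of 0, both of Ctse lie to the left, and those of Ctsc fall on both sides.

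Counted by probe set, 12 of 21 were higher and 2 were lower in the CCR2+ arrays of control mice, and 10 were higher and 2 lower in RbpjiΔEC mice. Of all 34958 probe sets, 41.6% and 39.1% were called. Probe sets of 1 gene share its transcript and are not replicates.

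The calls of the bright cathepsins with small differences depended on how the arrays were scaled. Under median centring 8 cathepsins were called higher and 1 lower in control mice, and 7 higher and 0 lower in RbpjiΔEC mice. With no normalization between arrays 8 were higher and 1 was lower in control mice, and 8 higher and 0 lower in RbpjiΔEC mice. Ctss differed by 0.58 and Ctsc by 0.59 in control mice under median centring (limma adjusted p = 0.00608 and 0.00751), and by 0.64 and 0.65 with no normalization. The same scalings gave 0.99 and 1.04 for Ctsh and 1.00 and 1.06 for Ctsz in control mice. In RbpjiΔEC mice they gave 0.61 and 0.90 for Ctsh (limma adjusted p = 0.0101 and 0.000244), 0.64 and 0.92 for Ctsz (0.0172 and 0.000366) and 0.49 and 0.78 for Ctsc (0.0271 and 0.000471), all of which were called. Ctss there was 0.34 under median centring, which was not called (adjusted p = 0.0970), and 0.63 with no normalization. The 600 genes with a mean level above 12, Ctsb, Ctsc, Ctsh and Ctss among them, had a median label difference in control mice of -0.07 under quantile normalization, 0.45 under median centring and 0.51 with none, so a shift of this size was common to bright genes. Calls over all genes split into 3532 higher and 3891 lower in control mice under quantile normalization, 4390 and 2614 under median centring, and 4584 and 1730 with none. In RbpjiΔEC mice these splits were 3290 and 3817, 3518 and 2853, and 5689 and 1197, and with no normalization the median of all genes was 0.23. Ctsl (4.51 and 4.57), Ctsd (3.28 and 3.34), Ctsa (2.49 and 2.55) and Ctsb (1.74 and 1.79) kept their direction and call in control mice on both other scalings, as they did in RbpjiΔEC mice.

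**Figure D3:**
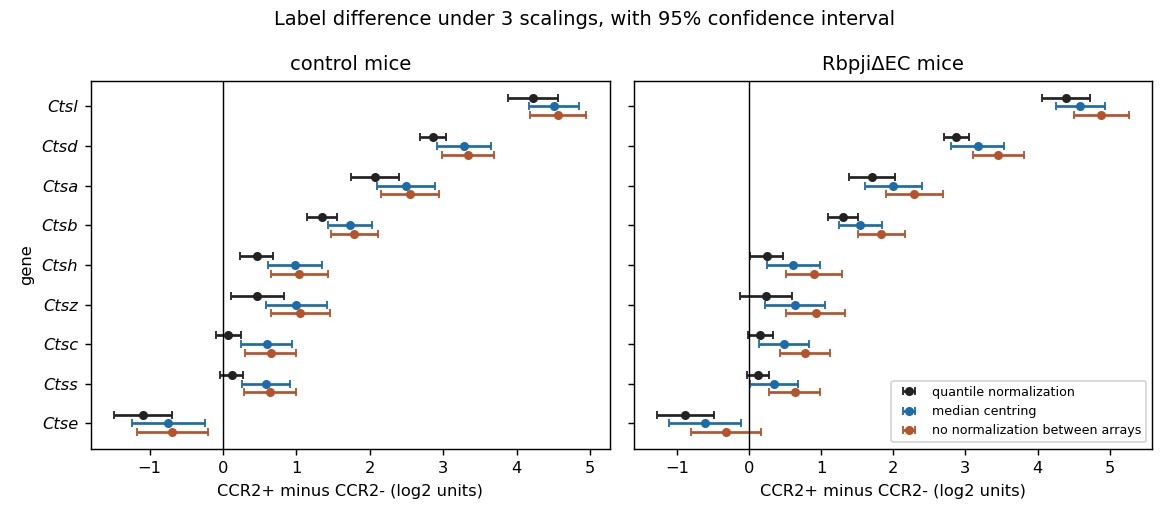
CCR2+ minus CCR2- difference in log2 units of the 9 cathepsin genes under 3 scalings of the arrays, with 95% confidence intervals, in control mice (left) and RbpjiΔEC mice (right). The points of Ctsl, Ctsd, Ctsa and Ctsb stay right of 0 throughout, while Ctsc and Ctss move from near 0 to about 0.6 in control mice.

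The genes that carry, activate and surround cathepsins were read in the same comparison, where 19.4% of all genes were called higher and 21.4% lower in control mice and 18.1% and 21% in RbpjiΔEC mice. Of 16 delivery and activation genes, 12 were called higher and 3 lower in the CCR2+ arrays of control mice, and 11 and 1 in RbpjiΔEC mice, with a median of 0.95 and 0.70 beside -0.03 for all genes in each. The list median was 1.34 and 0.91 under median centring and 1.39 and 1.20 with no normalization. Lrp1, an endocytic receptor, differed by 4.18 (SE 0.19) and Sort1, the sortilin that carries cathepsins to the lysosome, by 3.86 (SE 0.18). Lgmn, the legumain that matures cysteine cathepsins, differed by 2.78 (SE 0.15) and Grn, which encodes progranulin, by 2.55 (SE 0.17). Gga2, a sorting adaptor, was lower, by -2.83 (SE 0.14). The calls of Gga3 (-0.22) and Ap1g1 (-0.54) did not hold, since their differences turned positive under both other scalings. The mannose 6-phosphate receptor genes Igf2r and M6pr differed by 1.21 and 0.44.

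Of the 17 measured acidification genes, subunits of the proton pump and its chloride partner, 12 were called higher and 1 lower in control mice and 13 and 0 in RbpjiΔEC mice, with a median of 0.54 and 0.42. Under median centring the counts were 15 and 1 and 14 and 0 (median 1.07 and 0.81), and with no normalization 15 and 1 and 16 and 0 (1.13 and 1.10). Atp6v1a differed by 1.32 (SE 0.12), the chloride transporter gene Clcn7 by 1.27 (SE 0.10), Atp6v1h by 1.25 (SE 0.18) and Tcirg1 by 1.06 (SE 0.14). Atp6v0a1 was the called exception in control mice, at -1.12 (SE 0.25). Of the 4 complex partners and cofactors, 3 were higher in both genotypes. Glb1, the beta-galactosidase held in the Ctsa complex, differed by 3.05 (SE 0.20), Neu1, its neuraminidase, by 1.07 (SE 0.15) and Psap by 0.24 (SE 0.07). Other lysosomal peptidases had 4 higher and 1 lower of 7 in control mice, and 3 and 1 in RbpjiΔEC mice. Cpq differed by 3.47 (SE 0.22), Dpp7 by 1.38 (SE 0.12) and Tpp1 by 1.05 (SE 0.08), and Napsa, an aspartic protease like Ctsd and Ctse, by -4.99 (SE 0.13).

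Of 13 measured inhibitors, 5 were called higher and 0 lower in control mice and 4 and 1 in RbpjiΔEC mice. These 5 of 13 in each genotype lie near the 40.8% and 39.1% of all genes called. The cystatin genes Cst3 and Cstb, whose products block cysteine cathepsins outside and inside the cell, differed by 0.62 (SE 0.12) and 1.43 (SE 0.13). Serpinb6a differed by 3.65 (SE 0.17) and Ctla2b, whose product resembles a cathepsin propeptide, by 4.59 (SE 0.16). Of 14 other cathepsin genes, 2 were higher and 1 lower in control mice. Ctsf, a cysteine cathepsin of macrophages, was called in both genotypes (2.26, SE 0.15, and 2.11, SE 0.15). Ctsq (0.30) and Cts7 (-0.25), members of the placental cluster, were called under quantile normalization but not with none (adjusted p = 0.444 and 0.120), and they read 6.31 to 6.75 in their group means, around the trp level.

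Of the 9 transcriptional regulators, 5 were higher and 2 lower in control mice and 4 and 3 in RbpjiΔEC mice. Both other scalings gave 5 and 1 in control mice, and in RbpjiΔEC mice median centring gave 5 and 2 and no normalization 6 and 1. Mitf (3.54, SE 0.16), Tfec (3.30, SE 0.20) and Tfe3 (1.45, SE 0.15) encode MiT/TFE factors, and Spi1 (0.94, SE 0.17) the macrophage factor PU.1. Ciita, the class II transactivator, differed by -2.94 (SE 0.23) and Irf8 by -1.06 (SE 0.34). The Irf8 call was lost under both other scalings (-0.74 and -0.69 in control mice, limma adjusted p = 0.108 and 0.104). The genes of class II presentation, for which cathepsins trim invariant chain and antigen, were mostly lower. Of 8, 0 were higher and 6 lower in control mice and 0 and 7 in RbpjiΔEC mice. Both other scalings gave 0 and 5 in control and 0 and 6 in RbpjiΔEC mice. The list median in control mice was -1.41, and -0.91 under median centring and -0.86 with no normalization. In RbpjiΔEC mice it was -1.77, -1.48 and -1.19. H2-DMb2 differed by -4.22 (SE 0.10), H2-Ob by -4.14 (SE 0.14) and H2-Oa by -3.52 (SE 0.18), each a chaperone gene of class II loading. B cells express these genes too, and the B cell marker sums above were high in the CCR2- arrays, as were those of dendritic cells. The part of cell content in the class II differences was not tested. The genes named as called in these lists had limma adjusted p of at most 0.0347.

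**Figure D4:**
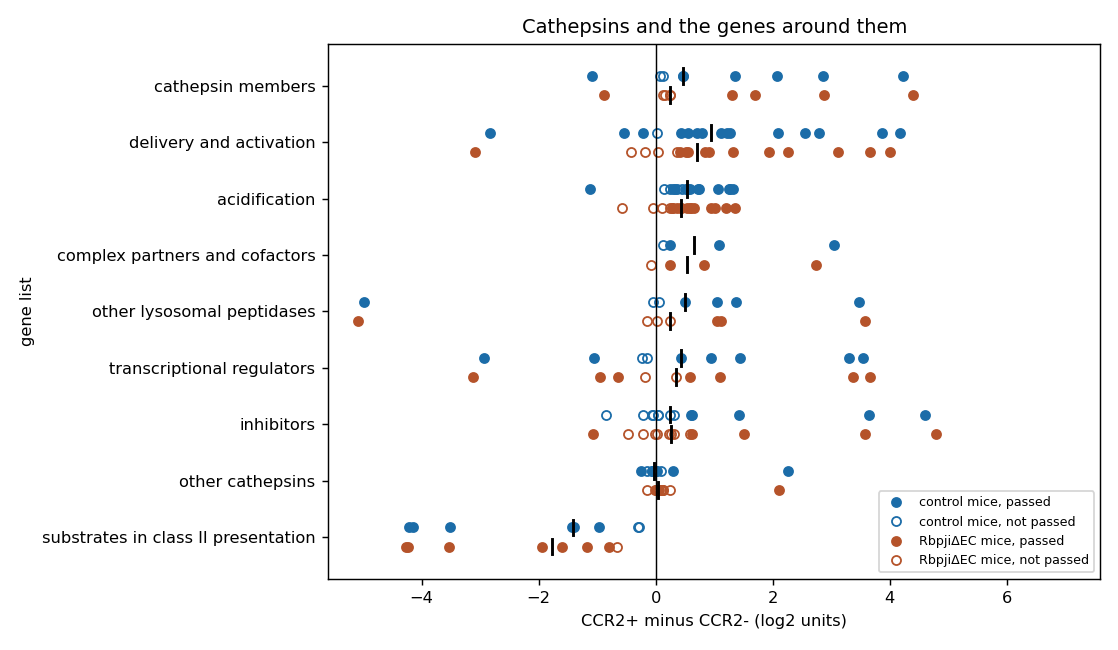
CCR2+ minus CCR2- difference in log2 units of each gene in the 9 cathepsin members and 8 lists of related genes, in control (blue) and RbpjiΔEC (orange) mice; filled points passed the test and open points did not, and black ticks are list medians. The delivery list has medians of 0.95 and 0.70, and the class II list is the 1 list with no called gene on the right.

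The genotype comparison asks whether endothelial loss of Rbpj changes the sorted cells of each label. No cathepsin passed the test in either label. In the CCR2+ arrays 0 of 9 genes were called, as were 0% of all genes. At an unadjusted limma p under 0.05, 830 genes (4.56%) passed, Ctsa among them. Rbpj read 11.36 ± 0.16 in CCR2+ control and 11.43 ± 0.29 in CCR2+ RbpjiΔEC arrays (SD, n = 4 each), which is no check of the genotype, since the loss was induced in other cells. Of the 9 estimates 8 were negative, with a median of -0.06 beside -0.01 for all genes. Those of Ctsc (-0.0041), Ctsl (-0.0063) and Ctss (-0.012) lay next to 0. These and that of Ctsb turned positive in some fits that left out 1 array. The 9 genes were read on the same arrays, so their signs are not independent. Ctsa differed by -0.40 (SE 0.15, limma adjusted p = 0.966). Its RbpjiΔEC arrays (11.08 to 11.74) overlapped the control arrays (11.53 to 11.96). Its partner Neu1 differed by -0.30 (SE 0.15, adjusted p = 0.966). The second Ctsa probe set differed by 0.02.

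Ctsd was the 1 cathepsin whose CCR2+ arrays did not overlap between the genotypes, at 13.27 to 13.38 in control and 13.20 to 13.23 in RbpjiΔEC mice, and 3.39% of all genes did as much. Its difference was -0.11 (SE 0.08, limma adjusted p = 0.966), a small step next to its label difference. Ctse differed by 0.32 (95% interval -0.07 to 0.71), Ctsz by -0.25 (-0.60 to 0.11; its other probe sets by -0.25 and -0.22) and Ctsh by -0.18 (-0.41 to 0.04). The intervals of Ctss (-0.16 to 0.14), Ctsc (-0.17 to 0.17), Ctsb (-0.27 to 0.14) and Ctsl (-0.34 to 0.33) all spanned 0, and that of Ctsl was the widest of these. Among the cathepsins only the Ctsa interval given above did not span 0.

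In the CCR2- arrays 0 of 9 cathepsins and 0% of all genes were called, and 390 genes (2.14%) passed at an unadjusted limma p under 0.05, with 0 cathepsins among them. The largest estimates were -0.17 for Ctsl (95% interval -0.51 to 0.16), -0.12 for Ctsd (-0.30 to 0.05) and 0.11 for Ctse (-0.28 to 0.51). Without the RbpjiΔEC array numbered 2, the Ctsl estimate was -0.0026. No cathepsin had groups that did not overlap, against 1.56% of all genes. The interaction, which asks whether the genotype difference depends on the label, was called for 0 of 9 cathepsins and 0% of genes, and 555 genes (3.05%) passed unadjusted. Its estimates ran from -0.37 (SE 0.21) for Ctsa to 0.21 (SE 0.26) for Ctse. The 8 related lists also had 0 calls in both genotype comparisons. The smallest p among them in the CCR2+ arrays was that of Igf2r, the cation-independent mannose 6-phosphate receptor, at -0.46 (SE 0.14, unadjusted p = 0.00533, limma adjusted p = 0.966).

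**Figure D5:**
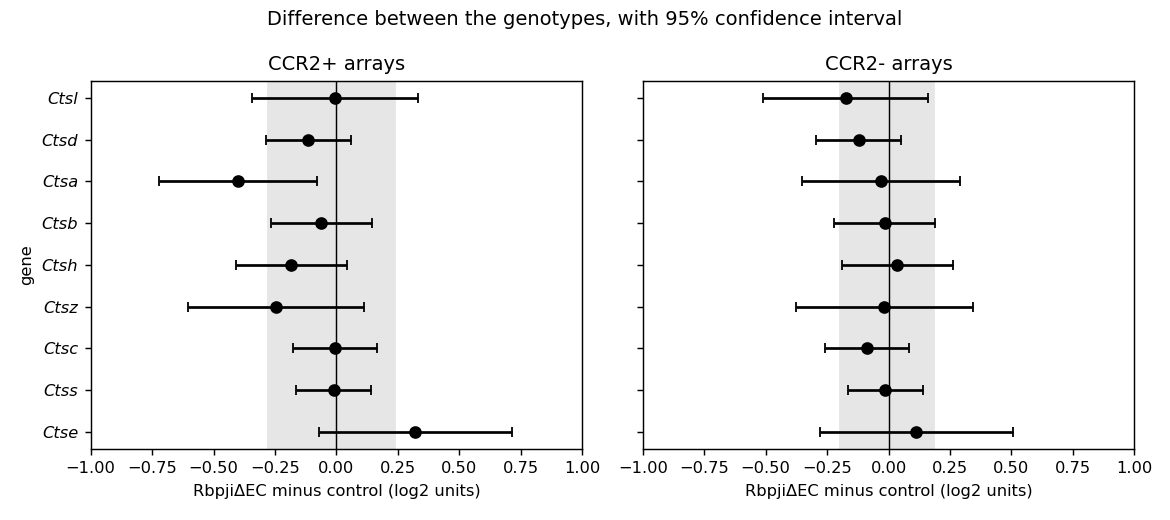
RbpjiΔEC minus control difference in log2 units of the 9 cathepsin genes in the CCR2+ arrays (left) and CCR2- arrays (right), with 95% confidence intervals; the grey band spans the 5th to the 95th percentile of all genes. Ctsa at -0.40 and Ctse at 0.32 lie outside the band on the left, and all 9 points lie inside it on the right.

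Array controls for RNA integrity were read beside the genotype values. The 3′ minus 5′ difference of actin averaged 0.26 in CCR2+ control and 0.39 in CCR2+ RbpjiΔEC arrays (exact permutation p = 0.0857, two-sided, smallest possible 0.0286, n = 4 each). That of Gapdh did not follow, at 0.20 in CCR2+ control and 0.19 in CCR2+ RbpjiΔEC arrays (difference -0.014). In the CCR2- arrays actin averaged 0.35 in control and 0.31 in RbpjiΔEC mice, and Gapdh 0.11 and 0.15. The 6 measured neutrophil markers, with 0 called, summed to 926 to 2802 in CCR2+ control and 759 to 866 in CCR2+ RbpjiΔEC arrays, and to 751 to 5218 and 731 to 859 in the CCR2- arrays. B cell and macrophage marker sums overlapped between the genotypes in the CCR2+ arrays. The part of RNA integrity and of neutrophil RNA in the cathepsin values was not tested.

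Ordered by group mean, the 4 groups followed the label for each of the 9 genes. Ctsl, Ctsd, Ctsa and Ctsb ran CCR2+ control, CCR2+ RbpjiΔEC, CCR2- control, CCR2- RbpjiΔEC from high to low, with a gap between the second and the third group that no array crossed. Within a label, neighbours overlapped except for Ctsd in the CCR2+ arrays. For Ctse the order was reversed, and each neighbouring pair overlapped. For Ctsc, Ctss, Ctsh and Ctsz all neighbours in the order overlapped.

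As a description over the 16 arrays, which are dominated by the label, Ctsd and Ctsl correlated at 0.995 and Ctsb with Ctsd at 0.984. Over deviations from the 4 group means, which leave the label out, the same pairs correlated at 0.21 and -0.13. The highest correlations of deviations were 0.61 for Ctsa with Ctsz and 0.58 for Ctsc with Ctss, and the lowest -0.58 for Ctsa with Ctss and for Ctsh with Ctsz. The genes most like each cathepsin over the arrays were Bst1 (0.998) and Cd14 (0.997) for Ctsl, Pmp22 and Itgam (both 0.998) for Ctsd, Lamp1 and Ctbp2 (both 0.992) for Ctsb, and Espl1 (0.990) and Adap1 (0.988) for Ctsa. They were Rftn1 (0.960) and Trim27 (0.951) for Ctse, Klhl2 (0.879) and Tiparp (0.852) for Ctsc, Pde4d (0.940) and Zfp874a (0.925) for Ctsh, and Slc25a39 (0.901) and Atp6v0d1 (0.887) for Ctsz. For Ctss the same 2 genes led on both measures, Tm9sf2 (0.916 over arrays and 0.878 over deviations) and Dctn6 (0.905 and 0.883). For the other cathepsins different genes led over deviations, at 0.867 (Zfp583 for Ctsd) to 0.956 (Sdhc for Ctsz), so the values of Ctss were not unusual. These are ranks over 18194 genes and 16 arrays, whose cell content differs between the labels.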

How the data were processed

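Transcripts were measured on 16 Affymetrix mouse genome-wide arrays (biotin-labelled RNA, PicoPure extraction, per the labels' protocols). The authors deposited linear intensities for 45101 probe sets; the summarization software and any normalization are not given in the sources used here. The deposited intensities were transformed to log2 and quantile normalized over the 16 arrays. Gene symbols came from GEO's platform annotation, which can be old: 34958 probe sets had 1 symbol, 932 several and 9211 none, and the last 2 kinds were left out. The probe set with the highest mean stood for each of 18194 genes, with no intensity filter. Cathepsins were measured by 21 probe sets, all of which are described.

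For testing, limma 3.58.1 (R 4.3.3) fitted 1 mean per group over all 16 arrays, eBayes, 5 contrasts, two-sided, Benjamini-Hochberg over all genes, threshold 0.05. Errors of differences are limma SEs, and of means SDs over 4 arrays. Called means past that threshold. The fit was tested on simulated data. Array controls had exact permutation tests. The number of arrays limits the precision. Hybridization and scan dates were not used here, so batches were not tested.

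The members, the lists and the alternatives were chosen with earlier results of these data known. All 9 cathepsins are named with every probe set. Of each list the called genes were eligible, at most 4 per direction by size, or else the gene with the smallest p. The text names part of these, and Igf2r and M6pr in the label comparison, and Cd74 in that of control mice, stand outside the rule and were chosen after their values were seen. For likeness, the 2 genes with the highest Pearson r per cathepsin were taken over arrays and over deviations from group means. Of the promoter table's entries, the 250 bases upstream of the start were used. Replicate numbers were not treated as pairs, because the labels do not tie them to animals and the correlations between arrays of the same number did not all exceed 0.1.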

Additional observations from a re-analysis of the deposited data

Results flagged for a closer look

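Among the 36 sets of 4 arrays (9 cathepsins in 4 groups), 2 held 1 array far from the other 3, where chance gives about 1 in 20 such sets. For Ctsd the CCR2- RbpjiΔEC array numbered 3 read 10.54, and the other 3 read 10.28 to 10.29. That value lies within the range of the CCR2- control arrays, 10.30 to 10.62. For Ctsl the CCR2+ control array numbered 1 read 11.92, and the other 3 read 12.46 to 12.56. It is the lowest of the 8 CCR2+ arrays, and without it the Ctsl label difference in control mice was 4.37.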

How the results depend on the processing

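Ctsl, Ctsd, Ctsa and Ctsb kept their direction and call between the labels, in both genotypes, under every alternative run, and Ctse did so in control mice. In no alternative was a cathepsin called between the genotypes or in the interaction. For the Ctse, Ctsh, Ctsz, Ctsc and Ctss label calls, the settings that changed them stand with their values in the report, apart from Ctsh in RbpjiΔEC mice with array weights (0.32, limma adjusted p = 0.00865) and Ctsz in control mice without CCR2- control replicates 1 and 3 (0.47, adjusted p = 0.125). That last setting was chosen after seeing the data, because these arrays had a low mean or a high minimum of deposited values. The count of cathepsins called between the labels in RbpjiΔEC mice was 5, and 8 with no normalization between arrays. Leaving out 1 array gave 6 to 7 in control and 5 to 6 in RbpjiΔEC mice.

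Genes called over the whole array set moved as follows. In the CCR2+ genotype comparison the count was 0, 2 with the mean of all probe sets or with probe sets as rows, 1 without the dimmest genes by mean level, 1 with array weights, and 0 to 2 leaving out 1 array. It was 1 without the 2 CCR2- control arrays in the CCR2- genotype comparison and in the interaction, where it was 0 otherwise, and 0 to 1 leaving out 1 array in the former. With probe sets as rows, 14534 and 13686 were called between the labels in control and RbpjiΔEC mice. The fit with the replicate number as a block called 1, 0, 7504, 7175 and 0 in the order CCR2+ genotype, CCR2- genotype, labels in control mice, labels in RbpjiΔEC mice and interaction, and changed no cathepsin call. Arrays of the same number correlated in their deviations at -0.38 to 0.15, -0.10 to 0.19, -0.03 to 0.40 and 0.04 to 0.24 in the first 4 of these, and 0, 2, 3 and 3 of 4 correlated best with their own number.

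Differences that turned sign were all of cathepsins that did not pass the test, and for each the cause was not tested. In the CCR2+ genotype comparison these were Ctsc (0.019) and Ctsl (0.0018) with array weights and Ctsl (0.033) with the mean of probe sets. In the CCR2- one they were Ctsa (0.0034) and Ctsh (-0.0064) with array weights, Ctsb (0.015), Ctsh (-0.015) and Ctsz (0.014) with the mean of probe sets, and Ctse (-0.033) and Ctsh (-0.042) with no normalization. Median centring turned Ctsa (0.018), Ctsb (0.11), Ctsc (0.036), Ctss (0.16) and Ctsz (0.069) there, and leaving out the 2 CCR2- control arrays turned Ctsa (0.016), Ctsb (0.10), Ctse (-0.11) and Ctsh (-0.051). In the interaction, Ctsd (-0.031) turned with array weights, Ctsc (-0.11), Ctsd (-0.11) and Ctss (-0.24) with median centring, and Ctsb (0.042) and Ctss (-0.0031) with no normalization. Between the labels in control mice Ctsc (-0.0039) turned with the mean of probe sets. Leaving out 1 array, the CCR2+ genotype differences ranged from -0.12 to 0.014 for Ctsb, -0.038 to 0.050 for Ctsc, -0.15 to 0.059 for Ctsl and -0.041 to 0.034 for Ctss. The CCR2- ones ranged from -0.15 to 0.059 for Ctsa, -0.079 to 0.061 for Ctsb, -0.016 to 0.27 for Ctse, -0.029 to 0.076 for Ctsh, -0.037 to 0.0056 for Ctss and -0.058 to 0.019 for Ctsz. The interaction ranged from -0.12 to 0.029 for Ctsb, -0.042 to 0.071 for Ctsd, -0.0038 to 0.25 for Ctsl and -0.028 to 0.047 for Ctss. Levels near the trp control, such as the second Ctsl probe set in the CCR2- arrays, limit a fold from below.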
